A study of Mus musculus with 9 samples.

Results

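The genes described here were 7 cathepsins of the lysosome (*Ctsb*, *Ctsc*, *Ctsd*, *Ctsh*, *Ctsl*, *Ctss* and *Ctsz*), legumain (*Lgmn*), the lysosomal thiol reductase *Ifi30* and the protease inhibitor cystatin C (*Cst3*). They were chosen by symbol as genes of lysosomal protein breakdown and antigen processing, and all 10 were found among the 52550 genes of the library. The cells were splenic pDCs of female C57BL/6 mice aged 10 to 12 weeks, sorted as CD11c-intermediate, SiglecH-positive and PDCA1-positive cells and treated in culture with R848, a TLR7/-8 ligand, at 10 μg/mL for 12 hours. The study had 9 samples, 3 each of G/G (WT), A/G (heterozygous) and A/A (homozygous), where A is an *Ncf1*-KI allele made with CRISPR/Cas9 that changes an arginine of NCF1 to histidine in the germline. The labels do not say whether a sample came from 1 mouse or from pooled mice. Of these, A/A replicate 1 was used here, and 8 libraries were not analysed here. No value below can therefore be set against G/G or A/G cells or against unstimulated cells, and none has a replicate error.

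Cathepsins are proteases made as inactive precursors, carried to endosomes and lysosomes, and activated there by low pH. Cathepsins B, C, H, L, S and Z use a cysteine in the active site, cathepsin D uses aspartates, and legumain is a cysteine protease of another family that cuts after asparagine. In antigen-presenting cells these enzymes cut proteins into peptides for MHC class II and trim the invariant chain, while the thiol reductase opens disulfide bonds so that the proteases can reach their sites. Endosomal TLRs, which pDCs use to sense nucleic acids, are also cut by cathepsins and legumain before they signal. Cystatin C blocks cysteine cathepsins and is largely secreted.

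The unit CPM is the number of reads of a gene scaled to a library of 1000000 reads, from the 31408298 recovered here. RPKM is CPM per kilobase of all annotated exons of the gene. Different genes are compared in RPKM, except where CPM is named to show what the length correction does. Since isoforms differ in length, RPKM per kilobase of the main transcript of each gene, the best supported annotated isoform, is given beside it for the 10 genes where it differs, and for named genes and medians of other lists where it differs by more than 1.5 times. Intervals are Wilson 95% intervals. They cover counting error only, since PCR copies were not marked with molecular identifiers and are not independent, and their half-width was at most 2.11% of a level among the 10 genes.

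The 10 genes were among the most abundant transcripts of these cells. In RPKM over all exons, 9 of 10 stood at 100 or more, a level that 2.99% of the 17632 genes with reads and a known exon length reached. *Ctsl*, at 96.3 RPKM, stood just under it. Their median was 438 RPKM, against 1.90 RPKM over all genes with reads, and their percentiles by RPKM ran from 96.9 to 99.9. Together they held 505522 reads, or 1.61% of the library. On the length of the main transcript all 10 stood at 100 RPKM or more, where 4.62% of genes did, and their median was 577 RPKM against 2.72 RPKM.

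**Figure D1:**
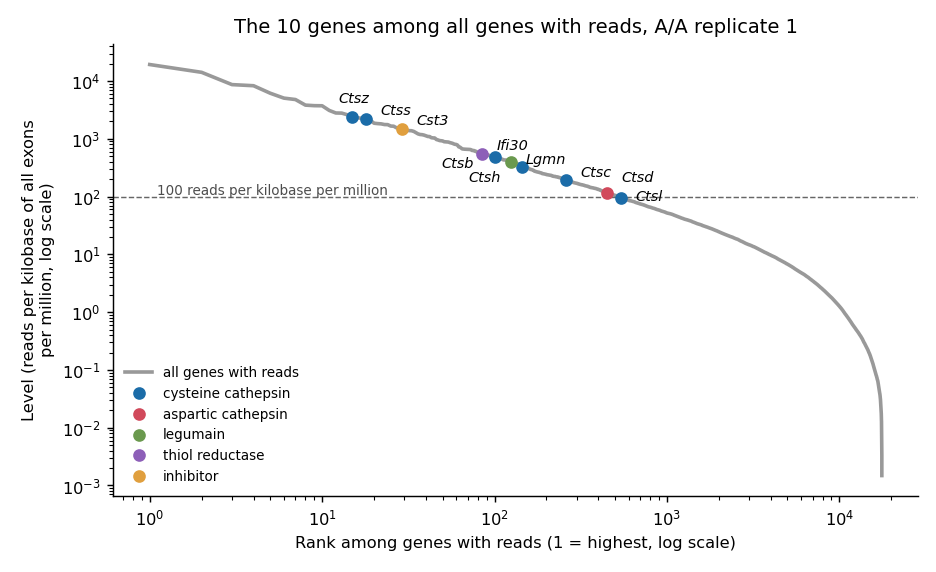
RPKM over all exons (log scale) against rank among the genes with reads (log scale) in A/A replicate 1. The grey line shows all 17632 genes, the points the 10 genes colored by enzyme class, and the dashed line 100 RPKM. The points start at *Ctsz*, with 14 genes above it, and end at *Ctsl*, with 539 above it.

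The 6 cysteine cathepsins summed to 5656 RPKM, and *Ctsz*, *Ctss* and *Ctsb* made up 89.2% of that sum, or 75.8% on the main transcripts. *Ctsz* (ENSMUSG00000016256.10, chromosome 2, 174427493 to 174439039, minus strand), a carboxypeptidase, was the highest of the 10 genes. It had 107440 reads, 3421 CPM (95% CI, 3400 to 3441) and 2374 RPKM (95% CI, 2360 to 2388). It has a single annotated transcript of 1441 bases in 6 exons, so its level is the same on both lengths.

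*Ctss* (ENSMUSG00000038642.10, chromosome 3, 95526786 to 95556403, plus strand) encodes the endopeptidase that removes the last part of the invariant chain in dendritic cells and B cells. It had 93666 reads, 2982 CPM (95% CI, 2963 to 3001) and 2196 RPKM (95% CI, 2182 to 2210), and no exon of another gene overlapped it. *Ctsz* exceeded *Ctss* in RPKM by 1.08 times (95% CI, 1.07 to 1.09), the closest pair of neighbors in this order. On the main transcripts the ratio was 1.08 as well, and *Ctsh*, not *Ctsb*, came next among the cysteine cathepsins.

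*Ctsb* (ENSMUSG00000021939.8, chromosome 14, 63122462 to 63145923, plus strand), an endopeptidase that also takes dipeptides from the carboxyl end, had 90565 reads. Its reads were close to those of *Ctss*, but its exons span 6051 bases, and it came to 477 RPKM, or 608 RPKM on its main transcript of 4743 bases. Of its exon bases, 12.8% overlap exons of *Fdft1* on the other strand, a gene with 2477 reads.

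*Ctsh* (ENSMUSG00000032359.14, chromosome 9, 90054152 to 90076089, plus strand), the aminopeptidase of the family, had 45380 reads and 321 RPKM (95% CI, 318 to 324). Its level depended most strongly on the isoform after that of *Ctsl*. The gene has 11 annotated transcripts, the main one holds 35.9% of its exon bases, and on that length the level was 894 RPKM.

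*Ctsc* (ENSMUSG00000030560.17, chromosome 7, 88278085 to 88310888, plus strand) encodes dipeptidyl peptidase I, which activates granule serine proteases by removing their first residues. It had 34989 reads and 192 RPKM (95% CI, 190 to 194), and 447 RPKM on its main transcript of 2493 bases.

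*Ctsl* (ENSMUSG00000021477.9, chromosome 13, 64359337 to 64370890, minus strand), the endopeptidase that takes the role of cathepsin S in the thymic cortex, was the lowest of the 10 genes by RPKM over all exons. It had 19634 reads, 625 CPM (95% CI, 616 to 634) and 96.3 RPKM. *Ctss* stood 22.8 times above *Ctsl* in RPKM over all exons and 6.94 times above it on the main transcripts, where *Ctsl* had 317 RPKM. The main transcript, of 1971 bases, holds 30.4% of the annotated exon bases of *Ctsl*, and 26.8% of them overlap the antisense gene *Gm47123*, which was listed with 75 reads. Without the strand of the counting, which the sources used here do not give, reads of this antisense pair cannot be told apart. A further 6.09% are shared on the same strand with the pseudogene *Gm49230*, listed at 0, and how such shared bases were counted is not given either.

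**Figure D2:**
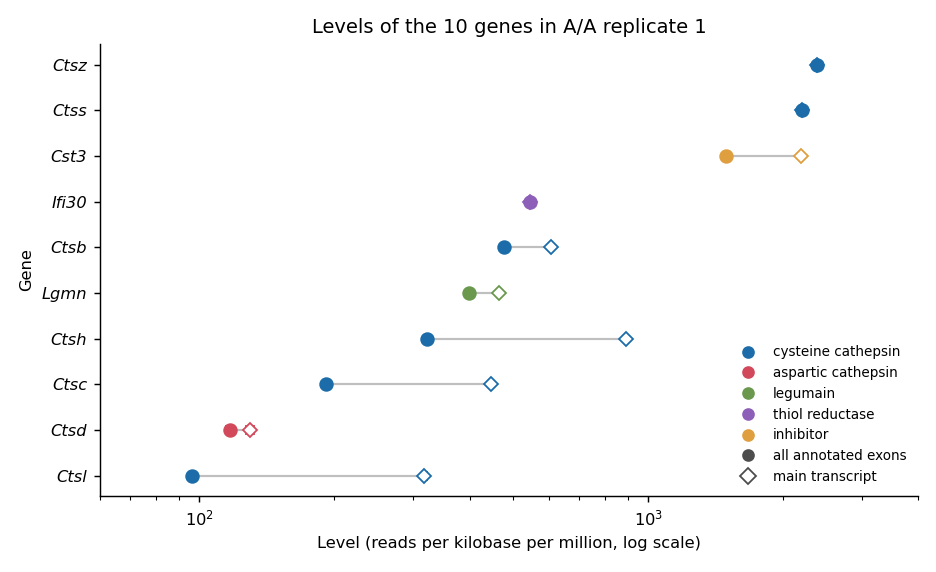
RPKM (log scale) of the 10 genes in A/A replicate 1, over all annotated exons (filled circles) and over the main transcript (open diamonds), colored by enzyme class. Bars, mostly smaller than the symbols, are Wilson 95% intervals. *Ctsl* moved most between the lengths, from 96.3 to 317 RPKM, while *Ctsz* and *Ifi30* did not move.

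The other 3 enzymes held ranks 4, 6 and 9 by RPKM over all exons. *Ifi30* (ENSMUSG00000031838.8, chromosome 8, 70762774 to 70766663, minus strand), the thiol reductase also called GILT, had 16815 reads, the second lowest number of the 10 genes. It is also the shortest by exon length, at 981 bases, and its 546 RPKM (95% CI, 538 to 554) stood 1.15 times (95% CI, 1.13 to 1.16) above that of *Ctsb*. In the annotation used its transcripts carry no coding label, and 8.66% of its exon bases overlap *6330537M06Rik* on the other strand, which had 364 reads.

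*Lgmn* (ENSMUSG00000021190.14, chromosome 12, 102394084 to 102439813, minus strand), which starts the breakdown of many antigens and also matures cathepsin precursors, had 29086 reads and 399 RPKM (95% CI, 394 to 403). On its main transcript of 14 exons it had 465 RPKM.

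*Ctsd* (ENSMUSG00000007891.16, chromosome 7, 142375911 to 142388038, minus strand), the aspartic cathepsin, had the fewest reads, 8661, and 117 RPKM (95% CI, 115 to 120). Its level moved little with the isoform, to 130 RPKM on the main transcript, where it was the lowest of the 10 genes. A reservation concerns the counting: 34.4% of its exon bases are shared, on the same strand, with the annotated gene *Gm49369*, which was listed with 69 reads. How reads in the shared bases were assigned is not given in the sources used here, and counting the 8661 reads over the 1543 unshared bases gives 179 RPKM.

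The inhibitor was abundant as well. *Cst3* (ENSMUSG00000027447.6, chromosome 2, 148871722 to 148875692, minus strand) had 59286 reads, 1888 CPM (95% CI, 1872 to 1903) and 1491 RPKM (95% CI, 1479 to 1503), the third level of the 10 genes. It exceeded *Ctsb* by 3.13 times, *Ctsh* by 4.64 times, *Ctsc* by 7.77 times and *Ctsl* by 15.5 times in RPKM over all exons (3.61, 2.46, 4.91 and 6.92 times on the main transcripts), and stood below *Ctss* (0.679 times) and *Ctsz* (0.628 times). Against the summed RPKM of the 6 cysteine cathepsins its level was 0.264, and it was 0.321 on the main transcripts. On that length *Cst3* had 2195 RPKM and *Ctss* 2201 RPKM, a ratio of 1.00 (95% CI, 0.992 to 1.01), so their order was not separated from counting error. These are ratios of transcripts, and the amounts of protein were not measured in this library.

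Of 17 other cystatins and stefins, 3 had more than 3 reads and 14 were listed at 0. *Cstb*, the stefin that inhibits cysteine cathepsins in the cytosol, had 553 RPKM. *Cst7*, cystatin F, which acts inside the endolysosome and is directed at cathepsin C among others, had 173 RPKM. *Csta2* had 0.598 RPKM from 12 reads. *Cst3* stood 2.70 times above *Cstb* in RPKM over all exons and 3.97 times on the main transcripts.

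In the order of the 10 genes by RPKM over all exons (*Ctsz*, *Ctss*, *Cst3*, *Ifi30*, *Ctsb*, *Lgmn*, *Ctsh*, *Ctsc*, *Ctsd*, *Ctsl*) each of the 9 steps between neighbors exceeded counting error by the exact conditional binomial interval. The range from *Ctsz* to *Ctsl* was 24.6 times. Part of this order rests on length: on the main transcripts *Ctsh* held rank 4, *Ctsb* rank 5 and *Ifi30* rank 6, *Ctsd* was last, and the range was 18.3 times. *Ctsz*, *Ctss* and *Cst3* led on both lengths.

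**Figure D3:**
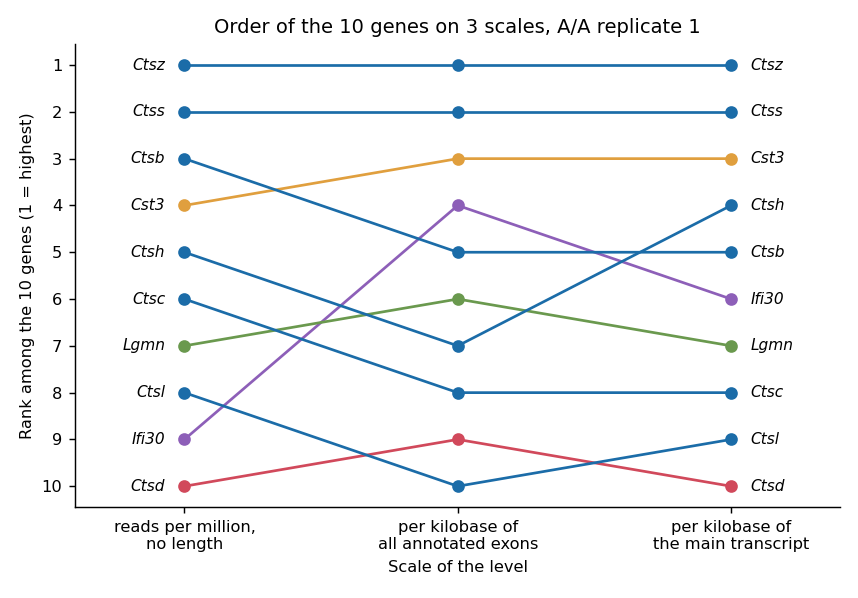
Rank of the 10 genes (1 is the highest) by CPM with no length, by RPKM over all exons and by RPKM over the main transcript, A/A replicate 1, colored by enzyme class as in the other plots. *Ctsz* and *Ctss* kept ranks 1 and 2 on all 3 scales, while *Ifi30* went from rank 9 by CPM to rank 4 and then rank 6.

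No sequence of 50 bases was shared between the annotated transcripts of any pair of the 10 genes. Matches with other genes of 50 bases or more made up 32.4% of the windows of *Ctsd* (with *Gm49369*), 26.3% of those of *Ctsl* and 12.1% of those of *Ctsb*, and none of those of *Ctss*, *Ctsz* and *Cst3*.

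The region before the start site is where lysosomal and IFN-responsive control elements are usually read, and 3 such regions are shown, 2 that hold the letters read in lysosomal genes and 1 that holds those read in IFN-responsive genes. RefSeq promoter windows (GRCm38.p6, 250 bases before to 50 after a start site) were matched for 8 of the 10 genes, all but *Ctsb* and *Ctsh*, in 9 windows, of which *Lgmn* had 2. They were searched on both strands for CACGTG, the E-box, for TCACGTGA, the center of the element read by TFEB and its relatives, which contains the former, and for GAAANNGAA, the spacing found in IFN-stimulated response elements. The 250 bases before the start are given 5′ to 3′ on the gene's strand, with CACGTG (*Ctsd*, *Ifi30*) or GAAANNGAA (*Ctss*) in capitals.
Ctss, chr3:95526536-95526785, plus strand: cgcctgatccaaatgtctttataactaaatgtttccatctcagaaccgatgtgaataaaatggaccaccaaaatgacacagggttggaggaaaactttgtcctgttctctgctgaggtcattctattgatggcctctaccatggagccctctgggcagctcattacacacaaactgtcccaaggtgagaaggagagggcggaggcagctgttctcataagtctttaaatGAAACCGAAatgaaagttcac
Ctsd, chr7:142387828-142388077, minus strand: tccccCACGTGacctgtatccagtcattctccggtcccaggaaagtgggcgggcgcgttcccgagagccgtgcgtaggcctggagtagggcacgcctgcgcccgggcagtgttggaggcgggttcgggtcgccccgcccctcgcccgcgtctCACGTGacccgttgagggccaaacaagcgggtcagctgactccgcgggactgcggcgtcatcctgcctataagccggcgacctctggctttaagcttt
Ifi30, chr8:70766664-70766913, minus strand: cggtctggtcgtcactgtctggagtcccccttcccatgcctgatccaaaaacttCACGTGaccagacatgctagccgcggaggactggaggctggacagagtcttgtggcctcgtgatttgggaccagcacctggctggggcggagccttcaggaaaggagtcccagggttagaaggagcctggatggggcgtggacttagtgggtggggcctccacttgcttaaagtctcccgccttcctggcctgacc

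*Ctsd* held CACGTG 245 and 98 bases before the RefSeq start, and the second lay within TCACGTGA. *Ifi30* held it 196 bases before the start, also within TCACGTGA. CACGTG also occurred in a window of *Lgmn* and in that of *Ctsl*, so that 4 genes had it, while 7.15% of all 32851 promoter windows did. The gene coordinates of *Ctsd* given above reach 142388038, upstream of the RefSeq start. Most of its printed bases and its second CACGTG therefore lie inside the gene as annotated there. The windows of *Lgmn* and *Ctsl* with CACGTG also lie inside the coordinates given for these genes. TCACGTGA was found in 0.974% of all windows. In *Ctss*, GAAANNGAA lay 21 to 13 bases before the start, where 8.56% of all windows held these letters at any place. The window of *Ctss* had a GC content of 44.0% and that of *Ctsd* 67.3%, against a median of 52.7%. Of the other motifs searched, GGAANNGAA, a close variant, was found in *Ctss* alone (8.24% of all windows), TATAAA in *Ctss* and *Lgmn* (13.6%) and CCAAT in *Ctsz* and *Lgmn* (37.4%). Of the 4 genes with CACGTG, *Ifi30* had 546 RPKM, *Lgmn* 399 (465 on the main transcript), *Ctsd* 117 (130) and *Ctsl* 96.3 (317). A link between these letters and the levels was not tested. Such a match is a description of letters, and no binding was measured.

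The library held few transcripts of other cathepsins. Of 16 further cathepsin genes, 6 had more than 3 reads and 10 were listed at 0, among them *Ctsf* and the genes of the placental group. The 7 cathepsins above made up 97.6% of the summed RPKM of all 23 (96.5% on the main transcripts). *Ctsa*, the serine carboxypeptidase that protects lysosomal sialidase, had 109 RPKM (203 on its main transcript), against 117 RPKM (130) for *Ctsd*. *Ctso* had 29.1 RPKM, *Ctsg* 2.71 RPKM and *Ctsk*, the collagenase of osteoclasts, 0.927 RPKM from 44 reads, so that *Ctss* stood 2370 times above its close relative *Ctsk*.

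The lists of genes that deliver and house these proteases had lower medians. Of 12 genes of mannose 6-phosphate tagging and sorting, 11 had more than 3 reads, with a median of 15.8 RPKM. The receptor gene *M6pr* had 205 RPKM (340 on the main transcript), *Ap1m1* 52.2 RPKM (79.8) and *Hgs* 39.9 RPKM (143), whereas *Igf2r*, the gene of the larger receptor, was listed at 0. All 12 genes of the lysosomal membrane had reads, with a median of 59.5 RPKM, led by *Laptm5* (543 RPKM), *Lamp1* (468 RPKM) and *Cd68* (237 RPKM). *Lamp1*, which encodes a main membrane glycoprotein of lysosomes, had a level close to that of *Ctsb*.

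Acidification genes were measured because cathepsin precursors are activated at low pH. Of 25 v-ATPase subunits and accessory genes, 19 had reads, with a median of 29.4 RPKM over all 25 (51.9 on the main transcripts), and 7 reached 100 RPKM (9 on the main transcripts). Over all exons the highest were *Atp6v1g1* at 224 RPKM, *Atp6ap2* at 169 RPKM and *Atp6v0b* at 162 RPKM. On the main transcripts *Atp6v0c*, at 406 RPKM, and *Atp6v0b*, at 333 RPKM, stood above *Atp6v1g1*, which stayed at 224 RPKM. The 6 listed at 0 were *Atp6v0a4*, *Atp6v0e2*, *Atp6v1b1*, *Atp6v1c2*, *Atp6v1e2* and *Atp6v1g3*, mostly isoforms of specialized tissues. *Hvcn1*, the voltage-gated proton channel, had 63.5 RPKM, and *Eea1*, which tethers early endosomes, had 3.95 RPKM. The NADPH oxidase genes *Rac2* and *Ncf1*, the latter being the KI gene, had 297 and 294 RPKM. Both copies of *Ncf1* carry the KI allele by the label, which a level per gene cannot check.

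All 41 other lysosomal hydrolases and their cofactors had reads. Their median, 20.3 RPKM (32.9 on the main transcripts), was lower than the level of every one of the 10 genes, and 8 of them (19.5%) reached 100 RPKM, or 11 on the main transcripts. *Psap*, the precursor of the saposins, had 817 RPKM. *Napsa*, an aspartic protease related to cathepsin D, had 431 RPKM (736 on the main transcript), above the 117 RPKM (130) of *Ctsd*, and the nuclease gene *Pld4* had 363 RPKM (635). Genes of the MiT/TFE factors, which drive lysosomal genes, stood below each of the 10 genes. *Tfeb* had 10.7 RPKM (26.4 on the main transcript) and *Tfe3* 9.67 RPKM (27.3), at percentiles 78.8 and 77.3 over all exons. *Mitf*, at 0.601 RPKM, and *Tfec*, at 0.387 RPKM (1.21), lay below the 1.90 RPKM median of genes with reads.

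Genes of proteins that these enzymes cut or load differed widely in level. In the MHC class II pathway all 9 genes had reads and 7 reached 100 RPKM. *Cd74*, the invariant chain, had 8307 RPKM, and *Ctss* stood at 0.264 of it (0.222 on the main transcripts). *H2-Ab1* had 3834 RPKM (8123 on the main transcript) and *H2-Eb1* 2609 RPKM (4331), while *H2-Aa* had 1552 RPKM (5226), although close relatives among the *H2* genes may share reads. The median of the list, 379 RPKM, was near that of the 10 genes.

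Among the 6 genes of endosomal TLRs and their transport, *Unc93b1*, which carries the receptors to endosomes, had 655 RPKM. *Tlr7*, the receptor of R848 in the mouse, had 50.3 RPKM and *Tlr9* 11.3 RPKM. *Ctss* stood 43.7 times above *Tlr7* and 194 times above *Tlr9* in RPKM over all exons. For *Ctsb* these ratios were 9.48 and 42.1, for *Lgmn* 7.93 and 35.3, and for *Ctsl* 1.92 and 8.52. On the main transcripts the ratios to *Tlr7* were 41.8 for *Ctss*, 11.5 for *Ctsb*, 8.84 for *Lgmn* and 6.02 for *Ctsl*, and that of *Ctsl* to *Tlr9* was 28.1.

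Of 16 granule serine proteases, the substrates of cathepsin C, 4 had more than 3 reads and 12 were listed at 0. *Mcpt8* had 12.6 RPKM, *Gzmb* 3.99 RPKM and *Ctsg* 2.71 RPKM, against 192 RPKM for *Ctsc*. *Mcpt8* is also the highest of the mast cell and basophil markers below, and whether the same cells express it and *Ctsc* was not tested.

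**Figure D4:**
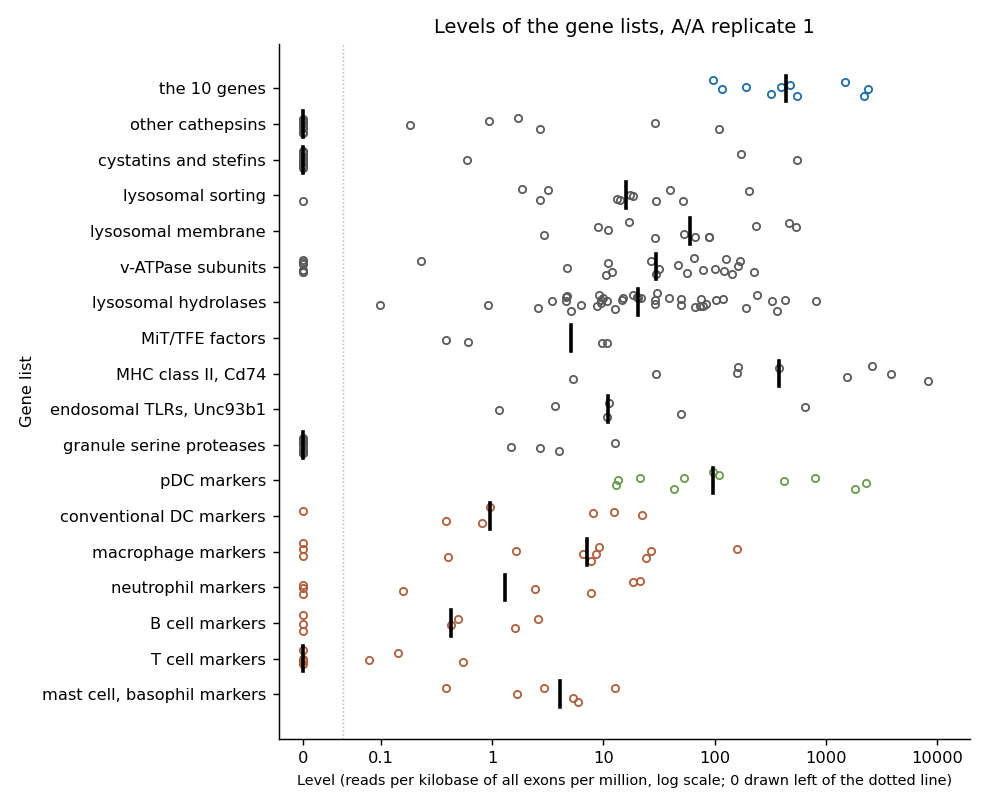
RPKM over all exons (log scale) of every gene of each list in A/A replicate 1. Circles are genes, the black bar is the median of the list, genes listed at 0 are drawn left of the dotted line, and the vertical scatter within a list carries no value. The 10 genes sit between 96.3 and 2374 RPKM, while 10 of 16 other cathepsins and 14 of 17 other cystatins are at 0.

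The label of the cells was checked against marker genes, since macrophages, conventional DCs and B cells also carry these proteases. All 11 pDC markers had reads, with a median of 96.4 RPKM, and *Ly6d* (2307 RPKM) and *Bst2* (1835 RPKM) were the highest. *Bst2* and *Siglech* encode the PDCA1 and SiglecH proteins used for the sort, so their reads are no separate check of the label. Of 7 conventional DC markers 6 had reads, with a median of 0.957 RPKM (1.91 on the main transcripts) and a sum of 45.0 RPKM (138). *Clec9a* was the highest of them at 22.5 RPKM (72.5), followed by *Zbtb46* at 12.4 RPKM (52.5), and *Cd209a* was listed at 0. How R848 changes the listed genes in conventional DCs was not measured, so their low levels do not bound the share of such cells. Of genes of activated DCs outside the list, *Ccr7* had 1865 RPKM and *Ccl22* 579 RPKM, and their cells of origin were not tested. Of 12 macrophage markers 9 had reads, with a sum of 242 RPKM, mostly from *Lyz2* at 158 RPKM and *Spic* at 26.7 RPKM (58.2), while *Marco*, *Vsig4* and *Cd163* were listed at 0.

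The B cell list summed to 5.09 RPKM, with *Cd79b* at 2.58 RPKM and *Cd79a* at 1.60 RPKM the highest of 4 with reads of 7, and *Pax5*, *Cr2* and *Fcer2a* at 0. Outside the list, the immunoglobulin genes *Ighm* and *Igkc* had 1047 RPKM and 100 RPKM, and their cells of origin were not tested. For T cells the sum was 0.764 RPKM, with *Trac* at 0.545 RPKM and *Lck* at 0.141 RPKM the highest of 3 of 7, and *Cd3d*, *Cd3e*, *Cd3g* and *Bcl11b* at 0. Neutrophil markers summed to 49.9 RPKM, with *S100a8* at 21.1 RPKM and *S100a9* at 18.4 RPKM the highest of 5 of 8, and *Ly6g*, *Mpo* and *Retnlg* at 0. All 6 mast cell and basophil markers had reads, with a sum of 28.7 RPKM, led by *Mcpt8* at 12.6 RPKM and *Cpa3* at 5.86 RPKM. The part of such cells in the levels of the 10 genes was not tested. In a bulk library, fewer cells of a type and less RNA per cell cannot be told apart.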

How the data were processed

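Libraries of mRNA were sequenced as 150 bp paired-end reads. The submitters' processing notes name HISAT2, StringTie and the builds mm8 and mm10, without versions, and the handling of strand and of shared bases is not given in the sources used here. The authors deposited 1 normalized signal per gene, with no stated unit. Its values above 0 were whole multiples of 1.19 (100% within 0.02 of a read), so reads were recovered by dividing by that step, which gave 31408298 reads over 17664 of 52550 genes. This unit was inferred from the values. A recovered read may stand for a read pair. Gene lengths, types and overlaps came from GENCODE M21 (GRCm38), in which 99.7% of identifiers were found and 95.2% of these had the same coordinates. CPM used all reads. RPKM divided CPM by the union of the annotated exons, or by the main transcript (best support level, then APPRIS rank). Neighbors were compared by the exact conditional binomial (Clopper-Pearson) 95% interval. Percentiles were taken among the genes with reads and a length, counting ties by their midpoint. A floor of 3 reads (0.0955 CPM) was used, and log2 levels used a pseudocount of 1. A level of 0 means only that the gene was listed at 0.

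The recovery of reads was tested on simulated data made of whole counts divided by 1 factor. Such data hold the step by construction, so the test cannot show that the deposited values are of that kind. With 1 library there was no test between groups. Alternatives were other lengths, the protein-coding total, CPM without length, other sets of genes to rank among and a pseudocount of 0.1, and, chosen after seeing the data, the main transcript and the exon bases free of other genes. The 10 genes and all lists were chosen with earlier results of these data known. Named are the 10 genes, the 3 highest of each list (all of lists of 4 or fewer), *Lamp1*, *Hvcn1*, *Eea1*, *Tlr7* and *Tlr9*, the 2 highest markers and those at 0. *Ctsk*, *Ctsf*, *Atp6v0c*, *H2-Aa*, *Siglech*, *Ccr7*, *Ccl22*, *Ighm*, *Igkc* and the genes overlapping the 10 were named after their values were seen. Python 3.11.15, numpy 2.4.6, scipy 1.17.1, pandas 2.3.3 and matplotlib 3.10.9 were used.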

Additional observations from a re-analysis of the deposited data

How the results depend on the processing

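The settings below rest on 1 library, so they measure the scale and not the cells. The median percentile of the 10 genes, 99.362 in RPKM over all exons, was 99.348 with the longest transcript, 99.311 with the main transcript, 99.425 by CPM with no length, 99.220 among genes with 10 reads or more, 99.189 among protein-coding genes and 99.785 with the genes at 0 included. The count at 100 RPKM or more was 9, and 10 with each other length and with the protein-coding total. By CPM with no length all 10 stood at 100 CPM or more, which is another unit and so another cut. The share of all genes is given above only for all exons and for the main transcript. The level of *Cst3* over the 6 cysteine cathepsins, 0.264, was 0.356 with the longest transcript, 0.321 with the main transcript, 0.258 with the exon bases free of other genes and 0.151 by CPM. Of the 10 genes, 6 held their place in the order with the longest transcript, 5 with the main transcript, 2 by CPM and 10 with the exon bases free of other genes. Single levels moved by more than their counting interval in 7 genes with the longest transcript, 7 with the main transcript, 5 with the exon bases free of other genes and 10 with the protein-coding total, which scales all alike, and in none with the smaller pseudocount. No paired analysis was possible because values of a single library were used. Depth was not the limit for the 10 genes, since the lowest had 8661 reads.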
